A study of Mus musculus with 6 samples.

Results

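Transcripts of 9 genes of the retinoic acid pathway were followed in mouse Sertoli cell lines: Stra6 for uptake of retinol, Rdh10, Aldh1a1 and Aldh1a2 for synthesis, Crabp1 and Crabp2 for binding, Cyp26b1 for breakdown, and Rara and Rarg for the response. They were taken by symbol from tables that hold 49203 gene names, and all 9 were present. Sertoli cells line the tubules of the testis and nurse the developing germ cells. The GFP-positive group held 3 libraries (replicates 2, 4 and 7) from Sertoli cell lines that express a green fluorescent protein gene carried on the Y chromosome, and the GFP-negative group held 3 libraries (replicates 9, 11 and M) from lines that do not show it. The comparison asks how lines that show the Y-borne reporter differ from lines that do not. The promoter of the reporter, the mouse strain and age, and whether a line is 1 clone are not given in the sources used here. Nothing in the labels ties a replicate to a culture or animal of its own, and the spread that the p-values rest on may be technical.

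Retinoic acid is made from vitamin A inside the cell. STRA6 carries retinol across the cell membrane, RDH10 oxidises it to retinal, and the ALDH1A enzymes oxidise retinal to retinoic acid. CRABP1 and CRABP2 carry retinoic acid in the cytoplasm, CYP26B1 degrades it, and the receptors RARA, RARB and RARG bind DNA as partners of RXR proteins. In the testis, retinoic acid drives the differentiation of spermatogonia and the entry into meiosis, Sertoli cells are a source of it, and CYP26B1 protects fetal germ cells from it.

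Levels are FPKM (a fragment count corrected for transcript length and sequencing depth) summed over the annotated transcripts of a gene and scaled between libraries. Differences are on the scale of log2(scaled FPKM + 0.5), GFP-positive minus GFP-negative, from limma fitted over 15117 genes and loci with Benjamini-Hochberg adjustment, and a gene was called at an adjusted p under 0.05. Because of the added 0.5, changes of low genes are understated. Depth was 11.2 to 11.8 Gb of aligned sequence per GFP-positive and 8.25 to 10.02 Gb per GFP-negative library. The FPKM of all transcripts summed to 668557 to 747404 in GFP-positive and to 292449 to 470070 in GFP-negative libraries. On the first principal component the GFP-positive libraries lay between -65.8 and -50.2, and GFP-negative 11 and M at 87.7 and 69.3, with GFP-negative 9 between them at 20.2. Of 14 Sertoli markers, 13 averaged 0.5 FPKM or more in both groups, and Rhox5 stood between 0 and 0.228 FPKM. Their summed level ran from 1610 to 3360 FPKM in GFP-positive and from 783 to 3172 FPKM in GFP-negative libraries, with Dmrt1 called higher and Sox9 and Gata4 called lower. Most of the sum in each library came from Clu, at 1196 to 2801 FPKM in GFP-positive and 518 to 2659 FPKM in GFP-negative libraries.

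In the comparison of the groups, both genes for the cytoplasmic carriers of retinoic acid were higher in the GFP-positive libraries and the gene for its receptor RARA was lower. Crabp1 and Crabp2 were called higher (log2 differences 2.75 and 1.67) and Rara was called lower (-2.39). The main annotated transcripts of Crabp1 and Crabp2 are 802 and 931 nt long, and that of Rara 3238 nt. With a trend in transcript length removed, Crabp1 and Rara kept their calls and Crabp2 did not (adjusted p = 0.0720). Aldh1a1, the most abundant of the 9, was 1.51 higher with an adjusted p of 0.0503. Of the 9 genes, 8 were above the filter on low values and Rdh10 was below it. Of those 8, 2 were called higher and 1 lower, where 25.9% of all tested features were called in either direction, 14.5% higher and 11.4% lower. The share called was not far from that background. The median log2 difference of the 8 was 0.05, against 0.02 over all tested features.

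**Figure D1:**
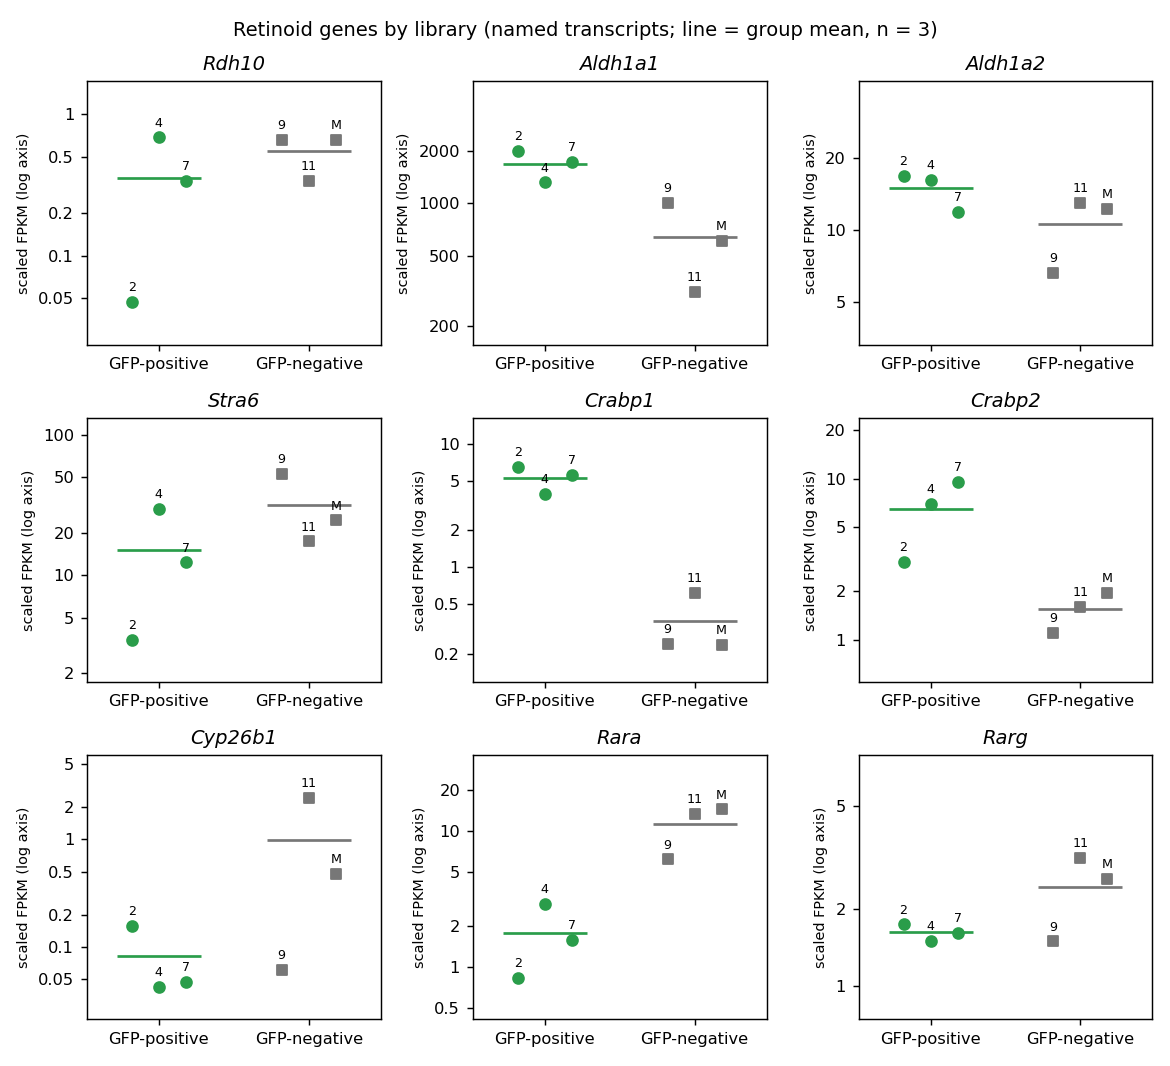
Level of each of the 9 genes in each library, as scaled FPKM on a log axis, with GFP-positive libraries as green circles on the left, GFP-negative libraries as grey squares on the right, replicate names above the points and a line at each group mean (n = 3). Aldh1a1, Crabp1 and Crabp2 are higher in each GFP-positive library than in any GFP-negative one, Rara is lower in each, and the other 5 overlap. The groups do not overlap in 45.7% of all tested features.

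Aldh1a1 encodes the retinal dehydrogenase that dominated the enzyme family here (chromosome 19, 20470079 to 20620829, plus strand, mm39). It had 1992, 1318 and 1724 FPKM in GFP-positive 2, 4 and 7, against 1005, 314 and 615 FPKM in GFP-negative 9, 11 and M. The groups did not overlap, as in 45.7% of all tested features (23.5% higher and 22.2% lower in GFP-positive), but GFP-negative 9 came close to GFP-positive 4. The means were 1678 ± 339 FPKM in GFP-positive and 645 ± 346 FPKM in GFP-negative libraries (SD, n = 3 each), and the log2 difference was 1.51 (SE 0.49, adjusted p = 0.0503). By group mean it ranked 13 of 13595 named genes in GFP-positive and 20 of 13595 in GFP-negative libraries. Over 17 alternative settings it stayed positive in each, from 0.46 to 1.90, with adjusted p from 0.00308 to 0.387 and under 0.05 in 5. One of those 5 was the fit without GFP-negative 9 (1.90, adjusted p = 0.0104). Where libraries were scaled to an equal sum of FPKM the difference was 0.46, but the median of all features then stood at -0.87. In bulk RNA, fewer cells that express a gene and less RNA per cell cannot be told apart, here or for the genes below.

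Most of the Aldh1a1 signal came from 2 annotated transcripts that differ in where they begin. The 13-exon transcript that starts at 20579325 took 69.8, 70.6 and 76.4% of the gene's FPKM in GFP-positive 2, 4 and 7, against 88.0, 73.8 and 69.5% in GFP-negative 9, 11 and M. The 16-exon transcript that starts far upstream, at 20470079, took 29.9, 29.2 and 23.3% in the GFP-positive libraries, against 11.9, 26.0 and 30.1% in the GFP-negative ones. The use of the 2 starts thus overlapped between the groups, with the lowest upstream share in GFP-negative 9. These are StringTie estimates of isoforms that share most exons, so they are given without a test. Aldh1a7, a closely related mouse gene that could exchange reads with Aldh1a1, stood far lower, at 9.65, 3.25 and 4.15 FPKM in GFP-positive 2, 4 and 7 and at 2.07, 1.25 and 3.93 FPKM in GFP-negative 9, 11 and M.

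RefSeq also gives Aldh1a1 a pair of starts, whose promoters are shown because both starts were in use. Each window runs from 250 bases before the start to 50 after it (build GRCm38.p6, plus strand, chr19:20492333-20492632 for the upstream and chr19:20601718-20602017 for the downstream start), and capitals mark CCAAT boxes, the only motif found of the 4 searched.
Aldh1a1 upstream start: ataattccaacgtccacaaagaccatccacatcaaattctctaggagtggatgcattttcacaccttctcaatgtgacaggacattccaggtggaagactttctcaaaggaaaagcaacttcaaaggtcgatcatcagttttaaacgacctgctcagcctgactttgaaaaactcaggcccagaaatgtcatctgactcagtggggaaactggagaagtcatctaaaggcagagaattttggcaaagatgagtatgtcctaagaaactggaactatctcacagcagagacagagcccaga
Aldh1a1 downstream start: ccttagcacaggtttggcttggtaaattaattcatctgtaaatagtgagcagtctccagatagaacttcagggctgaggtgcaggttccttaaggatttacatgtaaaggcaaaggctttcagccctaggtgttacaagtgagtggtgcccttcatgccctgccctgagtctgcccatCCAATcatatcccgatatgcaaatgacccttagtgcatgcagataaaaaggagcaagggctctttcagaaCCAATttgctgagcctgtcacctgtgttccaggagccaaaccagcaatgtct
The motifs searched on both strands were the receptor half-site AGGTCA, the GC box with the letters GGGCGG, the TATA box with the letters TATAAA, and CCAAT. The downstream window holds CCAAT at positions -72 and -2 from the start and the upstream window holds none. Of 32851 RefSeq promoters of the same length, 37.4% hold CCAAT. The paired receptor elements known as DR1, DR2 and DR5 occur in none of the 15 promoters of the 7 genes that the table covers, and in 0.222, 0.268 and 0.097% of all promoters.

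Aldh1a2, whose enzyme is the main source of retinoic acid in the embryo, was far less abundant per length than Aldh1a1 (chromosome 9, 71123071 to 71203525, plus strand). It had 16.7, 16.1 and 11.8 FPKM in GFP-positive 2, 4 and 7, against 6.61, 12.9 and 12.2 FPKM in GFP-negative 9, 11 and M. The groups overlapped, and GFP-negative 9 had the lowest value. The log2 difference of 0.51 (SE 0.31) did not pass (adjusted p = 0.241), and it turned to -0.50 when libraries were scaled to an equal sum of FPKM. The ratio of Aldh1a1 to Aldh1a2 was 119, 81.8 and 146 in GFP-positive 2, 4 and 7, against 152, 24.3 and 50.4 in GFP-negative 9, 11 and M. The third enzyme gene of the family, Aldh1a3, averaged 2.94 ± 0.37 FPKM in GFP-positive and 3.87 ± 3.49 FPKM in GFP-negative libraries and did not pass (adjusted p = 0.926). Aldh1a1 therefore held 98.5 to 99.2% of the summed FPKM of the 3 enzyme genes in the GFP-positive libraries and 93.8 to 99.2% in the GFP-negative ones.

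Rdh10 encodes the enzyme of the first oxidation step (chromosome 1, 16175998 to 16204644, plus strand), and its annotated transcripts missed most of its signal. They summed to 0.0471, 0.681 and 0.337 FPKM in GFP-positive 2, 4 and 7, against 0.655, 0.338 and 0.652 FPKM in GFP-negative 9, 11 and M, which is under the filter. A pair of unnamed isoforms assembled at the same locus and strand held 81.9 to 93.9% of the FPKM of the locus. In each library but GFP-positive 2, the larger part of this came from a 7-exon isoform that begins at 16175592, upstream of the annotated start. In GFP-positive 2 it had 0.281 FPKM and the other, 5-exon isoform had 0.292 FPKM. With these isoforms added, Rdh10 had 0.620, 3.77 and 2.45 FPKM in GFP-positive 2, 4 and 7, against 5.50, 5.57 and 5.97 FPKM in GFP-negative 9, 11 and M. Each GFP-positive library was then below each GFP-negative one, the GFP-negative libraries were close to each other, and GFP-positive 2 was lowest. In the sums of annotated transcripts, 22.2% of all tested features were lower without overlap. The log2 difference of Rdh10 with the isoforms added was -1.35 (SE 0.45, adjusted p = 0.0503), just outside the threshold. With unnamed isoforms added at each locus with 1 gene name, all 9 genes were tested and Aldh1a1, Crabp1, Crabp2 and Rara were called, where 30.3% of 15307 features were.

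Stra6, the membrane carrier of retinol, is itself known to be induced by retinoic acid (chromosome 9, 57971071 to 58063943, plus strand). It had 3.48, 29.7 and 12.4 FPKM in GFP-positive 2, 4 and 7, against 52.8, 17.5 and 24.6 FPKM in GFP-negative 9, 11 and M. The spread within each group was wide, GFP-positive 4 lay above GFP-negative 11 and M, and the log2 difference of -1.32 (SE 0.69) did not pass (adjusted p = 0.177). The table lists 14 annotated transcripts and 4 unnamed isoforms, and the unnamed ones held 57.1, 50.6 and 57.7% of the locus in GFP-positive 2, 4 and 7, against 28.4, 23.0 and 45.4% in GFP-negative 9, 11 and M. The unnamed share was thus higher in each GFP-positive library. With them added the levels were 8.13, 60.4 and 29.3 FPKM in the GFP-positive and 73.1, 22.8 and 45.04 FPKM in the GFP-negative libraries, and the log2 difference was -0.77 (adjusted p = 0.399). Without GFP-positive 2 the difference of the annotated transcripts was -0.53 (adjusted p = 0.501). Annotated genes and unnamed loci on the other strand of Stra6 reached at most 3.27 FPKM, and those of Aldh1a1 0.119 FPKM. Scaled to an equal sum of FPKM the Stra6 difference was -2.34 (adjusted p = 0.00795, the lowest over 17 settings, with 0.501 the highest).

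**Figure D2:**
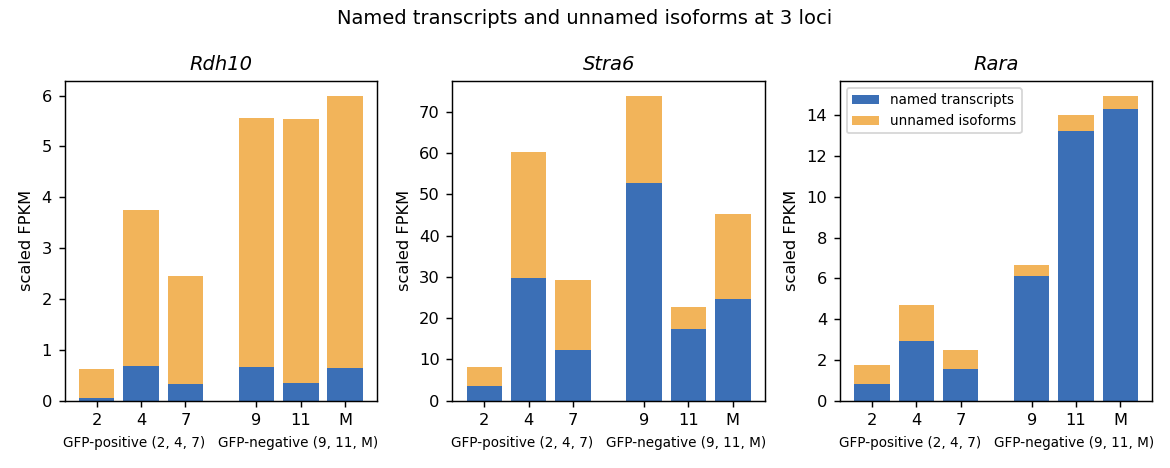
Scaled FPKM of Rdh10, Stra6 and Rara in each library, split into annotated transcripts (blue) and unnamed isoforms of the same locus (orange), with GFP-positive libraries left of GFP-negative ones. Unnamed isoforms make up 81.9 to 93.9% of Rdh10 in each library, and in Rara their share is higher in the GFP-positive libraries than in the GFP-negative ones.

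Crabp1 gave the largest difference of the 8 tested genes, though that of Rara was larger in size with an equal sum of FPKM (-3.32, against 2.08 for Crabp1), with the length trend removed (-2.26, against 2.18) and without GFP-negative 9 (-2.76, against 2.64). The gene lies on chromosome 9, 54672032 to 54680394, plus strand. It had 6.45, 3.95 and 5.56 FPKM in GFP-positive 2, 4 and 7, against 0.240, 0.623 and 0.237 FPKM in GFP-negative 9, 11 and M. The groups were far apart, and the level in the GFP-negative libraries was near the bottom of what was measured. The means were 5.32 ± 1.26 FPKM in GFP-positive and 0.367 ± 0.222 FPKM in GFP-negative libraries (SD, n = 3 each), with a log2 difference of 2.75 (SE 0.31, adjusted p = 0.00446). The call held in all 17 alternative settings, with differences from 2.08 to 3.61 and adjusted p from 0.000116 to 0.0398. Behind the values lay 34064 to 63936 aligned bases of Crabp1 in a GFP-positive library but 1633 to 4459 in a GFP-negative one, so the low values rest on few reads.

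The Crabp1 promoter is shown for this call (GRCm38.p6, chr9:54764498-54764797, plus strand, 250 bases before the start to 50 after), with GC boxes (GGGCGG on either strand) in capitals.
Crabp1: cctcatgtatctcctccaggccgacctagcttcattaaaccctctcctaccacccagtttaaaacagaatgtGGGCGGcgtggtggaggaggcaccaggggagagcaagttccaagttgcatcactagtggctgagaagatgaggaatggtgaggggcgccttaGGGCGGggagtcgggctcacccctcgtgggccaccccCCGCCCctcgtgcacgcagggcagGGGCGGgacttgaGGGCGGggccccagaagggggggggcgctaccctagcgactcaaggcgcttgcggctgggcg
It holds 5 such boxes, at positions -178, -86, -49, -25 and -12 by their first base on the plus strand, and none of the other 3 motifs. A GC box occurs in 35.7% of all promoters of this length and in 9 of the 15 promoters of these genes.

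Crabp2, the carrier that delivers retinoic acid to its receptors in the nucleus, was higher too (chromosome 3, 87855973 to 87860683, plus strand). It had 3.06, 6.94 and 9.51 FPKM in GFP-positive 2, 4 and 7, against 1.10, 1.60 and 1.95 FPKM in GFP-negative 9, 11 and M. The groups did not overlap, with GFP-positive 2 nearest to the GFP-negative libraries. The means were 6.50 ± 3.25 FPKM in GFP-positive and 1.55 ± 0.43 FPKM in GFP-negative libraries (SD, n = 3 each), with a log2 difference of 1.67 (SE 0.40, adjusted p = 0.0211). The call was less firm than that of Crabp1: it held in 11 of 17 settings (adjusted p from 0.00129 to 0.169) and failed when unfiltered (0.0790), without GFP-positive 4 (0.0687), without GFP-positive 7 (0.0836), without GFP-negative M (0.0692), with a trend in transcript length removed (1.16, 0.0720) and with an equal sum of FPKM (0.78, 0.169).

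The balance of the 2 carriers also differed between libraries. Crabp1 made up 67.8, 36.3 and 36.9% of the summed FPKM of both in GFP-positive 2, 4 and 7, against 17.9, 28.1 and 10.8% in GFP-negative 9, 11 and M. Its share was highest in GFP-positive 2, where Crabp1 was highest and Crabp2 lowest among the GFP-positive libraries. Fabp5, whose product can also carry retinoic acid, averaged 33.5 ± 7.58 FPKM in GFP-positive and 15.5 ± 11.1 FPKM in GFP-negative libraries and did not pass (log2 difference 1.29, adjusted p = 0.0702).

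Germ cell markers moved with the groups in the same direction as the carriers. Of 16 listed, 11 were tested, 8 were called higher and none lower, where 14.5% of all tested features were called higher and 11.4% lower. The 16 markers summed to 165, 39.5 and 60.7 FPKM in GFP-positive 2, 4 and 7, against 1.76, 1.97 and 3.81 FPKM in GFP-negative 9, 11 and M. Prm1 was listed at 0 in all 6 libraries and Acrv1 under 0.1 FPKM in each. Crabp1 had the order of this sum among the GFP-positive libraries, highest in 2 and lowest in 4, whereas Crabp2 was lowest in 2. The part of germ cell transcripts in these differences was not tested.

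Rara, the receptor gene most often linked to Sertoli cells, was lower in the GFP-positive libraries (chromosome 11, 98818644 to 98865768, plus strand). It had 0.829, 2.91 and 1.57 FPKM in GFP-positive 2, 4 and 7, against 6.14, 13.2 and 14.3 FPKM in GFP-negative 9, 11 and M. The groups did not overlap, with GFP-negative 9 lowest of its group and GFP-positive 2 lowest of all. The means were 1.77 ± 1.06 FPKM in GFP-positive and 11.2 ± 4.43 FPKM in GFP-negative libraries (SD, n = 3 each), with a log2 difference of -2.39 (SE 0.43, adjusted p = 0.0106). It held in 14 of 17 settings, with differences from -3.32 to -1.83 and adjusted p from 0.000185 to 0.0571, and was lost without GFP-positive 7 (0.0507), without GFP-negative M (0.0571) and with no filter (0.0521). The summed markers of macrophages and of endothelial cells stood lower in the same libraries. The 5 macrophage markers summed to 1.63 to 2.23 FPKM in GFP-positive and 3.602 to 7.98 FPKM in GFP-negative libraries, with 2 tested and 1 called lower, and the 4 endothelial markers summed to 3.49 to 6.31 FPKM in GFP-positive and 7.67 to 12.4 FPKM in GFP-negative libraries, with 1 tested and none called. In the GFP-negative libraries most of each sum came from 1 gene, Lyz2 or Cdh5. Only Lyz2, Csf1r and Cdh5 were lower in each GFP-positive library than in any GFP-negative one, and the other markers overlapped. Cd68 had 0.837 to 1.40 FPKM in GFP-positive and 0.671 to 1.15 FPKM in GFP-negative libraries. No marker of either list was at 0 in all libraries, and the part of these cell types in the difference of Rara was not tested.

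The transcripts of Rara differed in their pattern. The 8-exon transcript that starts at 98851238 had 0.774, 1.57 and 0.975 FPKM in GFP-positive 2, 4 and 7, against 2.79, 7.65 and 7.45 FPKM in GFP-negative 9, 11 and M. The 9-exon transcript that starts at 98828524 had 0, 1.13 and 0.516 FPKM in the GFP-positive libraries, against 3.05, 2.47 and 5.92 FPKM in the GFP-negative ones. An unnamed 8-exon isoform with that same start was higher in each GFP-positive library, at 0.935, 1.80 and 0.903 FPKM in GFP-positive 2, 4 and 7 and at 0.534, 0.782 and 0.643 FPKM in GFP-negative 9, 11 and M. It made up 36.5 to 53.0% of the locus in the GFP-positive libraries and 4.31 to 8.002% in the GFP-negative ones, and with it added the log2 difference of Rara was -1.83 (adjusted p = 0.0147). As isoform estimates these values are descriptive.

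Of 4 RefSeq starts of Rara, the one farthest downstream is shown because it alone holds a receptor half-site (GRCm38.p6, chr11:98964622-98964921, plus strand). This start was not matched to any of the Rara transcripts above, whose positions are in mm39. Capitals mark AGGTCA at position 34 after the start and a GC box on the minus strand at -101.
Rara, farthest downstream start: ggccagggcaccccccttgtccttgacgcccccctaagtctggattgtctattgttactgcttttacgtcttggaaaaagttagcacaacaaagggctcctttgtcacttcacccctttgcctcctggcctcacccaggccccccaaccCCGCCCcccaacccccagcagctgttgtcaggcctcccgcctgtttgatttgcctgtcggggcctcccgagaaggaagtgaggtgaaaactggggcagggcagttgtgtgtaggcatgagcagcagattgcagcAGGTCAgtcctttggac
AGGTCA occurs in 16.3% of all promoters of this length and in 2 of the 15 of these genes, the other being the upstream start of Rarg. A match in letters is not a binding site.

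Rarg, the receptor gene known from spermatogonia, was not called (chromosome 15, 102143373 to 102165952, minus strand). It had 1.74, 1.51 and 1.61 FPKM in GFP-positive 2, 4 and 7, against 1.496, 3.16 and 2.62 FPKM in GFP-negative 9, 11 and M. The GFP-positive libraries were close to each other and to GFP-negative 9, while GFP-negative 11 and M were higher. The means were 1.62 ± 0.12 FPKM in GFP-positive and 2.42 ± 0.85 FPKM in GFP-negative libraries, and the log2 difference of -0.42 (SE 0.30) did not pass (adjusted p = 0.317). The difference stayed negative in all 17 settings, from -1.27 to -0.27. It was -1.27 (adjusted p = 0.0330) with an equal sum of FPKM, and the adjusted p was between 0.0527 and 0.575 elsewhere. The third receptor gene, Rarb, a known target of retinoic acid, was below the filter, at 0.632, 0.472 and 0.164 FPKM in GFP-positive 2, 4 and 7 and at 0.377, 0.285 and 0.268 FPKM in GFP-negative 9, 11 and M.

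The make-up of the receptor family therefore differed between the groups. Rara held 25.9, 59.5 and 46.9% of the summed FPKM of the 3 receptor genes in GFP-positive 2, 4 and 7, against 76.6, 79.3 and 83.2% in GFP-negative 9, 11 and M. Rarg held 54.4, 30.8 and 48.2% in the GFP-positive and 18.7, 18.9 and 15.2% in the GFP-negative libraries. The ratio of Rara to Rarg was 0.476, 1.93 and 0.973 in GFP-positive 2, 4 and 7, against 4.11, 4.19 and 5.46 in GFP-negative 9, 11 and M, so the 2 were nearly balanced in GFP-positive 7 and Rara prevailed in each GFP-negative library. With unnamed isoforms added the ratio was 1.01, 3.13 and 1.53 in the GFP-positive and 4.46, 4.44 and 5.70 in the GFP-negative libraries, closer together but without overlap. Among the partner receptors, Rxrb was the most abundant in each library (15.2 ± 2.43 FPKM in GFP-positive and 12.5 ± 1.86 FPKM in GFP-negative libraries, adjusted p = 0.421). Rxra averaged 2.38 ± 0.74 FPKM in GFP-positive and 6.13 ± 3.09 FPKM in GFP-negative libraries and did not pass (-1.10, adjusted p = 0.0805). It passed in 3 of 17 settings (adjusted p from 0.00154 to 0.224), one of them without GFP-negative 9 (-1.56, 0.00828).

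**Figure D3:**
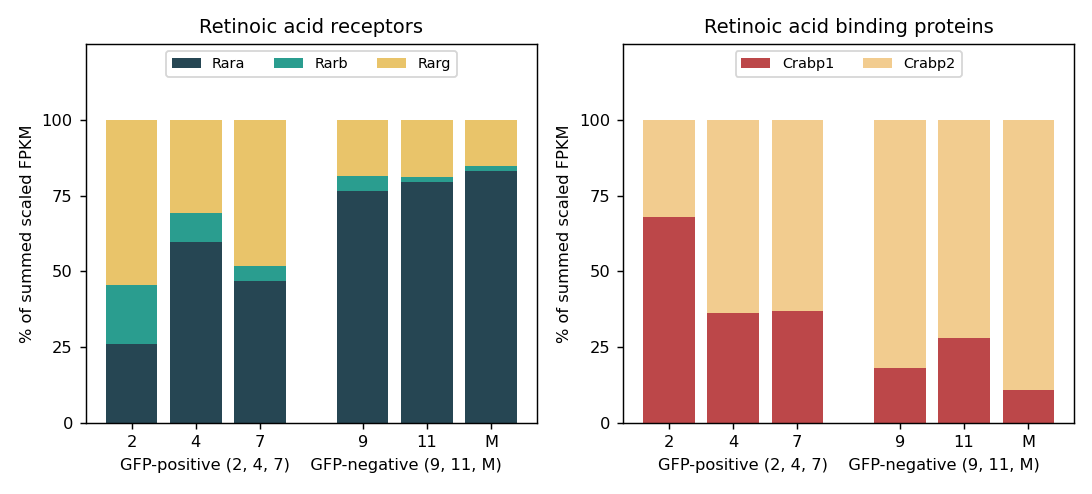
Share of each gene in the summed scaled FPKM of the retinoic acid receptors (left) and the retinoic acid binding proteins (right) in each library, in percent, with GFP-positive libraries left of GFP-negative ones. Rara takes 25.9 to 59.5% of the receptors in the GFP-positive and 76.6 to 83.2% in the GFP-negative libraries, and Crabp1 takes a larger share of the binding proteins in each GFP-positive library.

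Cyp26b1, whose enzyme clears retinoic acid, was low and uneven (chromosome 6, 84548396 to 84570890, minus strand). It had 0.156, 0.0427 and 0.0474 FPKM in GFP-positive 2, 4 and 7, against 0.0615, 2.43 and 0.477 FPKM in GFP-negative 9, 11 and M. It passed the filter through GFP-negative 11, and GFP-negative 9 lay within the range of the GFP-positive libraries. The log2 difference of -1.02 (SE 0.54) did not pass (adjusted p = 0.183), and it was not tested without GFP-negative 11, where the gene was below the filter. Without GFP-negative 9 it passed (-1.54, adjusted p = 0.0376, the lowest of 15 settings, with 0.357 the highest). It also passed with library weights (-0.93, adjusted p = 0.0400). The summed fibroblast or interstitial markers were also highest in GFP-negative 11. They came to 89.5 to 148 FPKM in the GFP-positive libraries, against 81.4, 1292 and 400.0 FPKM in GFP-negative 9, 11 and M. Col1a1 (691 FPKM) and Col1a2 (444 FPKM) made up most of the sum in GFP-negative 11. Dcn was lowest there of all libraries (1.58 FPKM), and Dcn and Lum were highest in GFP-positive 2 (14.4 and 0.162 FPKM). The part of these markers in the Cyp26b1 value of GFP-negative 11 was not tested.

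Its relative Cyp26a1, one of the genes most strongly induced by retinoic acid, had another pattern. It had 0.0509, 3.83 and 1.81 FPKM in GFP-positive 2, 4 and 7, against 0.0467, 0.105 and 0.235 FPKM in GFP-negative 9, 11 and M. GFP-positive 4 and 7 stood above the GFP-negative libraries, whereas GFP-positive 2 was among them. Of the summed FPKM of the 3 Cyp26 genes, Cyp26a1 held 91.7 and 94.6% in GFP-positive 4 and 7 and 16.6% in GFP-positive 2, against 15.0, 3.78 and 24.6% in GFP-negative 9, 11 and M.

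Low values in GFP-positive 2 recurred among some of the genes known to be induced by retinoic acid, a pattern noticed after the values were seen. Dhrs3, which encodes a retinal reductase, had 1.28, 14.0 and 19.0 FPKM in GFP-positive 2, 4 and 7, against 2.82, 5.68 and 6.12 FPKM in GFP-negative 9, 11 and M. Stra8, the gene of entry into meiosis, had 0.0815, 3.59 and 10.9 FPKM in GFP-positive 2, 4 and 7, against 0, 0.0677 and 1.02 FPKM in GFP-negative 9, 11 and M. Tgm2, which encodes a transglutaminase, had 12.5, 263 and 165 FPKM in GFP-positive 2, 4 and 7, against 139, 152 and 109.7 FPKM in GFP-negative 9, 11 and M. In each of these 3, GFP-positive 2 stood apart from GFP-positive 4 and 7, and for Dhrs3 and Tgm2 it was the lowest of all 6 libraries. Rec8, a meiotic cohesin gene, had 1.09, 8.90 and 4.51 FPKM in GFP-positive 2, 4 and 7, against 2.82, 0.993 and 2.31 FPKM in GFP-negative 9, 11 and M.

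Of the 6 tested genes of the list of induced genes, 5 were lowest in GFP-positive 2 among the GFP-positive libraries, as were 37.7% of all tested features. The other, Rarres1, was lowest in GFP-positive 7 (1.29 FPKM, against 2.88 FPKM in GFP-positive 2). Rarb and Cdx1, induced genes below the filter, were highest in GFP-positive 2, at 0.632 and 0.139 FPKM. Dhrs3, Cyp26a1 and Rarb were listed under other roles of the pathway, not among the induced genes. Dhrs3, Cyp26a1, Stra8 and Tgm2 were at least 5 times lower in GFP-positive 2 than in both 4 and 7, as were 285 of 15117 features (1.89%). Among the 9 genes of the pathway core, Stra6, Crabp2 and Rara were lowest in GFP-positive 2, and Rdh10 was too, while Aldh1a1, Aldh1a2, Crabp1, Rarg and Cyp26b1 were highest there. The peritubular myoid markers were also lowest in that library, at a summed 131 FPKM, against 1862 and 1065 FPKM in GFP-positive 4 and 7 and 331 to 878 FPKM in the GFP-negative libraries, and the summed germ cell markers were highest there. Of that list, Stra8 and Kit, which are also induced genes, were lowest in GFP-positive 2 among the GFP-positive libraries. The part of these cell types in the pattern was not tested.

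Over all 6 libraries Cyp26a1 (1.501, adjusted p = 0.114), Stra8 (1.99, adjusted p = 0.144), Dhrs3 (0.63, adjusted p = 0.573), Rec8 (0.81, adjusted p = 0.336) and Tgm2 (-0.68, adjusted p = 0.606) did not pass. With GFP-positive 2 left out, Cyp26a1 (2.34, adjusted p = 0.0149), Stra8 (3.18, adjusted p = 0.0214) and Dhrs3 (1.73, adjusted p = 0.0296) were called higher, each the lowest p of its settings, with 0.286, 0.404 and 0.997 the highest. Tgm2 then turned to 0.68 and did not pass (adjusted p = 0.212). These genes were singled out for their low values in GFP-positive 2. Leaving that library out therefore raises their differences by construction, and the calls do not test the pattern. In the same fit 1551 of 14898 features were called higher. With library weights and all 6 libraries kept, Cyp26a1 (1.56, adjusted p = 0.0162) and Stra8 (2.31, adjusted p = 0.0317) were called higher. Dhrs3, Rec8 and Tgm2 were not called in that fit, where 4346 of 15117 features were called higher.

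**Figure D4:**
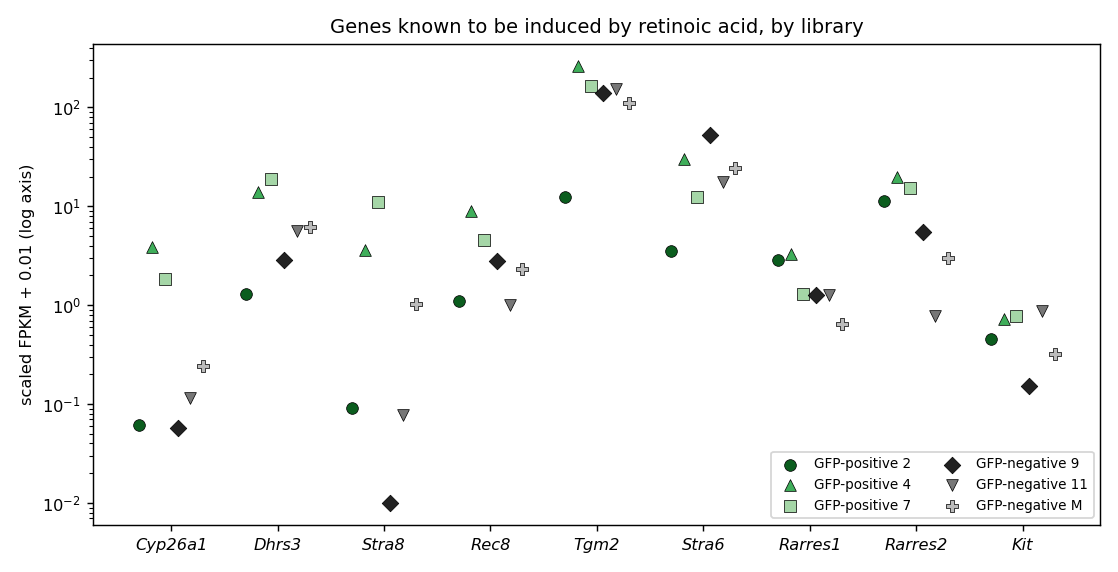
Scaled FPKM plus 0.01, on a log axis, of genes known to be induced by retinoic acid in each library, with GFP-positive libraries in shades of green and GFP-negative ones in shades of grey. For Cyp26a1, Dhrs3, Stra8, Rec8 and Tgm2 the point of GFP-positive 2 lies well below those of GFP-positive 4 and 7, and for Rarres2 it lies with them.

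Of 52 other genes of the pathway, all were in the tables, 30 were above the filter, and 2 were called higher and 4 lower, where 14.5% of all tested features were called higher and 11.4% lower, so the count does not set the list apart. Their median log2 difference was 0.35. Among induced genes, 1 of 6 was called. It was Rarres2, which encodes chemerin and is known as a retinoid-responsive gene from human cells. It had 11.4, 19.9 and 15.3 FPKM in GFP-positive 2, 4 and 7, against 5.49, 0.764 and 2.99 FPKM in GFP-negative 9, 11 and M (log2 difference 2.40, SE 0.52, adjusted p = 0.0160). The call was lost without GFP-positive 4 (0.0578), without GFP-positive 7 (0.0618), without GFP-negative M (0.0630) and when no filter was used (0.0726, the highest of 17 settings, with 0.00046 the lowest). Rarres1 (0.90, adjusted p = 0.0958) and Kit (0.35, adjusted p = 0.455) did not pass, and Meiosin, Hoxb1 and Cdx1 were below the filter.

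Among the 9 tested retinol and retinal dehydrogenases and reductases, differences ran from -0.02 to 1.20 and 1 was called. Adh5, a broadly expressed alcohol dehydrogenase better known for handling formaldehyde, had 84.1, 62.8 and 83.9 FPKM in GFP-positive 2, 4 and 7, against 43.0, 37.9 and 32.8 FPKM in GFP-negative 9, 11 and M. Its log2 difference was 1.01 (SE 0.26, adjusted p = 0.0250), it held in 9 of 17 settings (adjusted p from 0.000746 to 0.930), and it was lost without GFP-positive 2 (0.0673) or 7 (0.107) and without GFP-negative 11 (0.0543) or M (0.120), with no filter (0.0563), with quantile normalization (0.65, 0.102) and with the length trend removed (0.74, 0.0859). With an equal sum of FPKM it was -0.04, where the median of all features was -0.87. Adh1 averaged 16.7 ± 9.58 FPKM in GFP-positive and 12.3 ± 6.19 FPKM in GFP-negative libraries and did not pass (adjusted p = 0.590). Of 12 genes of uptake, transport and storage, 3 were tested and none was called, Dgat1 (0.39, adjusted p = 0.263) among them, and Lrat, whose enzyme stores retinol as esters, stayed at or under 0.0322 FPKM in each library.

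The genes of the wider list called lower were 1 receptor gene and 3 genes of receptor cofactors. Of 6 cofactor genes, 3 were called lower and none higher, where 11.4% of all tested features were called lower and 14.5% higher. A list of 6 genes is too short to set the cofactors apart, and no test was made over it. Nrip1, which encodes a corepressor induced by retinoic acid, had 0.381, 0.805 and 1.23 FPKM in GFP-positive 2, 4 and 7, against 2.75, 4.41 and 4.64 FPKM in GFP-negative 9, 11 and M (-1.79, SE 0.34, adjusted p = 0.0118). Ncoa2, which encodes a coactivator, had 3.19, 2.39 and 1.19 FPKM in GFP-positive 2, 4 and 7, against 7.90, 6.98 and 8.49 FPKM in GFP-negative 9, 11 and M (-1.66, SE 0.33, adjusted p = 0.0128). Both were lower in each GFP-positive library than in any GFP-negative one, as were 22.2% of all tested features. Ncor1, which encodes a corepressor, did not pass (-0.11, adjusted p = 0.774).

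Ppard, which encodes a nuclear receptor to which FABP5 can deliver retinoic acid, was called lower as well. It had 0.346, 0.601 and 0.294 FPKM in GFP-positive 2, 4 and 7, against 0.923, 3.70 and 3.14 FPKM in GFP-negative 9, 11 and M (-1.63, SE 0.43, adjusted p = 0.0268). Without GFP-negative M none of the calls of Nrip1, Ncoa2 and Ppard held (adjusted p = 0.0614, 0.0630 and 0.108), and with no filter none did either (0.0514 to 0.104). Of these, Nrip1 alone held without GFP-positive 7, and without GFP-positive 2, GFP-positive 4 or GFP-negative 11, Nrip1 and Ncoa2 did.

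**Figure D5:**
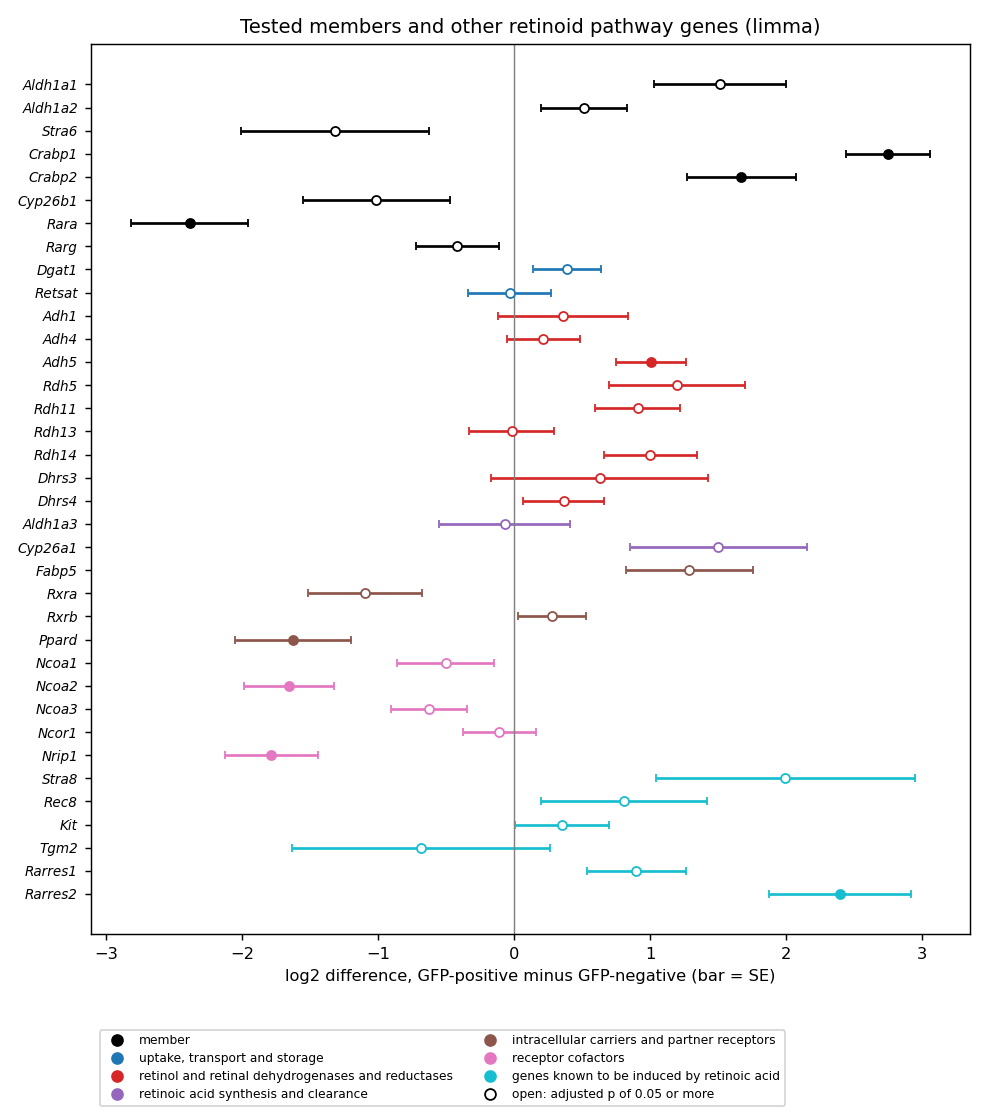
Log2 difference (GFP-positive minus GFP-negative) with its SE from limma for the 8 tested genes of the core set (black) and other tested pathway genes coloured by role, with filled points for an adjusted p under 0.05. Crabp1, Crabp2, Adh5 and Rarres2 are filled on the right, and Rara, Ppard, Ncoa2 and Nrip1 on the left.

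The genes with the most similar profile over the 6 libraries were sought among named genes (Gm and Rik names left out) with a mean of at least 5 FPKM (6186 or 6187 candidates), by the root mean square difference of centred log2 values. For Rara this was Cd63, which encodes a tetraspanin of late endosomes, at 0.13, with 13.7, 27.5 and 20.4 FPKM in GFP-positive 2, 4 and 7 and 59.7, 134 and 155 FPKM in GFP-negative 9, 11 and M. For Crabp2 it was Cenpm, a centromere protein gene, at 0.17, and for Crabp1 it was Rpsa, a ribosomal protein gene, at 0.35. Aldh1a1 was nearest to Chmp5 (0.10), Aldh1a2 to Trip6 (0.10), Rarg to Rheb (0.05), Cyp26b1 to Ctdsp2 (0.14) and Stra6 to Bhlhe40 (0.45).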

How the data were processed

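Total RNA from 6 mouse Sertoli cell libraries was extracted with TRIzol, treated with DNase, depleted of ribosomal RNA and made into strand-specific libraries by the dUTP method, per the labels' protocols. Trimmomatic, HISAT2 and StringTie with the mm39 build appear in the submitters' processing notes. Versions and the strand setting are not given in the sources used here. The authors deposited FPKM and mean per-base coverage (a depth signal) for the same 153503 transcripts in each library, per the file headers. Coverage divided by FPKM gave the aligned bases per library, and coverage times length gave those of a gene. Without read counts no counting error can be given.

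The FPKM of a gene was summed over transcripts with its name. Loci without a name kept their assembly identifier, and 7902 unnamed isoforms at named loci were left out, with 5.36 to 8.16% of the FPKM of a library. Scale factors were medians of ratios to the geometric mean of the libraries, over features above 0 in each and with a mean of at least 1 FPKM. Features with a longest transcript under 200 nt or averaging below 0.5 scaled FPKM were dropped. The test was limma 3.58.1 (R 4.3.3, eBayes with a mean-variance trend) on log2(scaled FPKM + 0.5). The fit was tested on simulated data. Genes named are the 9, the called genes and the 2 most abundant tested genes of each role in the wider list, and the gene nearest in profile to each of the 8 tested. Aldh1a7, Dhrs3, Rxra, Rarb, Lrat, Stra8, Rec8, Kit, Rarres1, Meiosin, Hoxb1 and Cdx1 were named after their values were seen. The same holds for the single cell type markers that are named. Some genes of the wider list enter its counts but are not reported here by name. The 9 genes, the lists and the tests were chosen with earlier results of these data known. Promoters came from RefSeq (GRCm38.p6, 7 of 9 genes matched by symbol). Alternatives varied the pseudocount (0.1 and 1), filter, scaling, gene definition, variance model, library weights, length trend and libraries. Python 3.11.15, pandas 2.3.3 and matplotlib 3.10.9 were used for tables and figures.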

Additional observations from a re-analysis of the deposited data

How the results depend on the processing

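Calls over all features numbered 3915, and 1084 with no filter, 7075 with an equal sum of FPKM, 8327 with library weights and 1992 with the length trend removed. Leaving out each library gave 466 (without GFP-negative M) to 5632 (without GFP-negative 9), with 583 without GFP-positive 7, 2070 without GFP-positive 4, 2269 without GFP-positive 2 and 2392 without GFP-negative 11. The share of calls that were higher in GFP-positive was 55.8%, and 7.99% with an equal sum, 45.9% with the length trend removed and 64.3% if unfiltered. Library weights were estimated gene by gene and were highest for GFP-negative M (3.38) and GFP-positive 7 (2.94).

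Of the 9 genes, the 2 called higher became 1 (Crabp1) with no filter, an equal sum or the length trend removed, and 1 to 3 when a library was left out. The 1 called lower became 0 with no filter, 3 with an equal sum, 2 with library weights, and 0 to 2 when a library was left out. Of the wider list, 2 were called higher (Adh5 and Rarres2), and 1 with an equal sum, quantile normalization or the length trend removed (Rarres2), 1 with no filter (Meiosin, with both Adh5 and Rarres2 lost), 10 with library weights, and 0 to 6 when a library was left out. The 4 called lower became 0 with no filter, 8 with an equal sum, and 0 to 5 when a library was left out, and 6 with library weights. Where no cause is shown by the construction of a setting, the cause was not tested.

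With an equal sum of FPKM the direction turned for Aldh1a2 (-0.50), Dgat1 (-0.61), Adh1 (-0.65), Adh5 (-0.038), Dhrs3 (-0.35), Rxrb (-0.74), Rec8 (-0.070) and Kit (-0.20). Other turns were of uncalled genes: Aldh1a3 with quantile normalization (0.015), library weights (0.21) or the length trend removed (0.048), and -0.40 to 0.51 when a library was left out; Tgm2 with library weights (0.044), and -1.50 to 0.68 when a library was left out; Ncor1 with the length trend removed (0.18), and -0.30 to 0.021 when a library was left out; and Adh1, at -0.033 to 0.83 when a library was left out. Of the alternative values of the 8 tested genes, 115 kept direction and call, 9 lost the call, 9 gained it and 1 turned. Cyp26b1 was below the filter, with no value, at a mean of at least 1 and without GFP-negative 11. No paired analysis was possible because the groups share no replicate number. The few aligned bases of Crabp1 in the GFP-negative libraries, 1633 at the lowest, limit its fold change.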
